A study of Rattus norvegicus with 18 samples.

Results

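Fibrillar collagen and vimentin transcripts were followed across 18 libraries of sorted rat islet cells. The set is defined by gene identifier, with no cut on a measured value, but it was chosen with earlier results of these data known. Of the 4 listed genes, 3 were analysed out of 27654 genes in the count table: ENSRNOG00000003897 (Col1a1), ENSRNOG00000003357 (Col3a1) and ENSRNOG00000018087 (Vim). ENSRNOG00000011292 (Col1a2) was not analysed here. The symbols are those given with the list, because the deposited tables hold identifiers only.

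Col1a1 encodes the alpha 1 chain of type I collagen, the main fibre-forming protein of connective tissue. Col3a1 encodes the chain of type III collagen, which forms fibres together with type I collagen in distensible tissues. Vim encodes vimentin, an intermediate filament protein of mesenchymal cells such as fibroblasts, pancreatic stellate cells and endothelial cells. In the pancreas, fibrillar collagens are made mainly by fibroblasts and stellate cells, and beta cells are epithelial cells that are not known as a main source of them.

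The series compared replicating with quiescent beta cells from islets of old and of young rats. All groups shared an overnight culture of the islets at 11.1 mM glucose with 10% FBS (fetal bovine serum), and all were given EdU, a label for newly made DNA, at 10 micromolar. The series text describes 9 islet batches of 2 pooled rats, each giving a replicating and a quiescent sample. Old islets gave 4 replicative and 4 quiescent libraries, and young islets gave 5 of each. No source used here states the strain, the age beyond old or young, or the gate of the sort. The labels give the cell type as islets, and the beta cell identity of the sorted cells was not checked against markers, since identifiers could not be paired with symbols.

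Total counts per library ran from 4639863 to 10365264 in old quiescent, 2975086 to 8639541 in old replicative, 2723660 to 14222719 in young quiescent and 5439091 to 8242896 in young replicative cells. When all libraries were thinned to 2723660 counts, 14996 to 16826 genes were detected in old quiescent, 11759 to 16854 in old replicative, 15684 to 22295 in young quiescent and 14004 to 21836 in young replicative libraries. Old replicative replicate 3 had the fewest genes detected. Levels are given in CPM, the usual unit of a gene's counts relative to the total of its library, on library sizes scaled by TMM, a method that equalises the bulk of the genes between libraries. A gene was called when its edgeR quasi-likelihood p, adjusted by Benjamini-Hochberg over the 14920 genes tested, was under 0.05 in a model with 4 group means.

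Col1a1 reached its highest levels in replicating cells of old islets. It stood at 3162, 8962, 522 and 792 CPM in old replicative replicates 1 to 4. In old quiescent replicates 1 to 4 it stood at 97.5, 443, 28.04 and 28.4 CPM. All 4 old replicative libraries lay above all 4 old quiescent ones, with the gap between 522 and 443 CPM set by a single high quiescent library, replicate 2. In young quiescent replicates 1 to 5, Col1a1 stood at 30.4, 23.6, 21.8, 3.31 and 5.47 CPM. The young replicative values were 95.9, 73.7, 160.0, 3.51 and 1.90 CPM. The young groups overlapped, since replicates 1 to 3 of the replicative cells lay above every young quiescent library while replicates 4 and 5 lay among or below the lowest ones.

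Group means of Col1a1 were 3360 ± 3918 CPM in old replicative (SD, n = 4), 149 ± 198 in quiescent cells of old islets (SD, n = 4), 67.0 ± 66.7 in young replicative (SD, n = 5) and 16.9 ± 11.9 in young quiescent libraries (SD, n = 5). By medians, young replicative cells at 73.7 CPM came before old quiescent cells at 62.9 CPM. The ranges of these neighbours overlapped, from 28.04 to 160.0 CPM. Old quiescent and young quiescent cells shared only 28.04 to 30.4 CPM, and the old replicative group alone did not overlap any other. In old replicative replicate 2 the single gene held 0.993% of all counts (95% Wilson interval 0.987% to 1.00%, counting error only). In bulk RNA of sorted cells, more cells of a collagen-producing type and more collagen RNA per cell cannot be told apart.

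Col3a1 followed Col1a1 almost library by library. It stood at 2270, 6878, 232 and 597 CPM in old replicative replicates 1 to 4. Its old quiescent values were 73.2, 463, 21.6 and 19.99 CPM. Old groups overlapped for this gene, because quiescent replicate 2 at 463 CPM lay above replicative replicate 3 at 232 CPM. In young quiescent replicates 1 to 5, Col3a1 stood at 19.9, 16.7, 25.8, 6.11 and 6.91 CPM. In young replicative libraries it stood at 63.7, 54.6, 145, 0.669 and 0.761 CPM. The last 2 values rest on 4 counts each, and they were the lowest of all 18 libraries. The Col3a1 means were 2494 ± 3054 CPM in old replicative (SD, n = 4), 145 ± 214 in quiescent cells of old islets (SD, n = 4), 53.0 ± 59.3 in young replicative (SD, n = 5) and 15.1 ± 8.48 in young quiescent cells (SD, n = 5), the same order as for Col1a1.

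Vim was the steadier of the genes. In old replicative replicates 1 to 4 it stood at 445, 1205, 600.2 and 176 CPM. The old quiescent values were 21.2, 104, 18.2 and 21.0 CPM. Every old replicative library lay above every old quiescent one, and old quiescent replicate 2 again stood above the rest of its group. Young quiescent libraries were close to each other, at 16.9, 21.1, 16.1, 15.9 and 27.8 CPM in replicates 1 to 5. Young replicative libraries held 68.3, 35.4, 42.6, 19.2 and 133 CPM. Of these, 4 lay above all young quiescent libraries, and replicate 4 lay within their range. The means of Vim were 606 ± 435 CPM in old replicative (SD, n = 4), 59.7 ± 44.7 in young replicative (SD, n = 5), 41.1 ± 41.9 in quiescent cells of old islets (SD, n = 4) and 19.6 ± 5.05 in young quiescent cells (SD, n = 5). Between the middle groups the ranges overlapped, and so did those of the 2 quiescent groups.

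**Figure D1:**
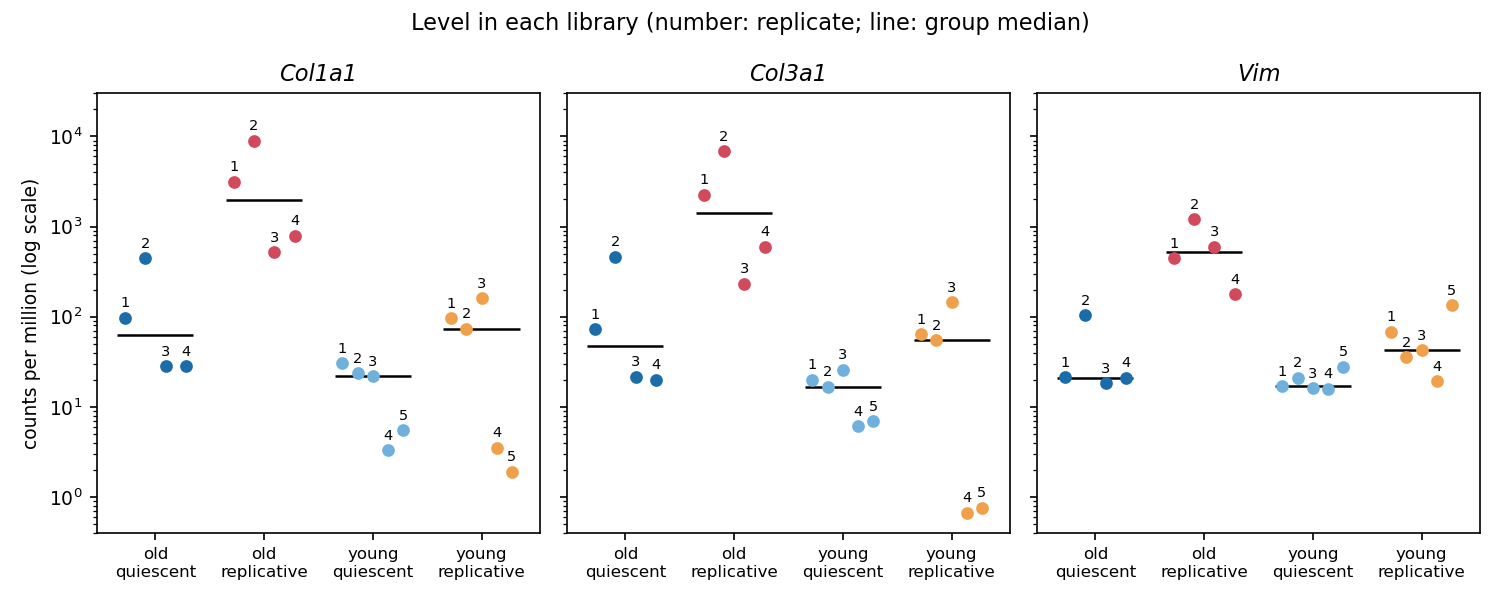
Level of Col1a1, Col3a1 and Vim in each library, in CPM on a log axis, with points numbered by replicate and a line at each group's median. For Col1a1 and Vim all 4 old replicative libraries lie above all other libraries, young replicative replicates 4 and 5 lie at 3.51 and 1.90 CPM of Col1a1, and old quiescent replicate 2 stands above its group in each panel.

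Replicating and quiescent cells of old islets differed in Vim, which rose by a log2 fold change of 3.88 (SE 0.669, edgeR adjusted p = 0.000737), or 14.8-fold between the means. For Col1a1 the log2 fold change was 4.49 (SE 1.45, edgeR adjusted p = 0.0534), and for Col3a1 it was 4.11 (SE 1.54, edgeR adjusted p = 0.0921), so that neither collagen was called although both fold changes were larger than that of Vim. The means of the collagens differed 22.5-fold and 17.3-fold. Called higher was thus 1 of the 3 genes, in a comparison where 7.16% of all genes were called higher, and the groups did not overlap for 2 of 3, where 5.42% of all genes were higher without overlap. Fitted on the 8 old libraries alone, Vim was again called (log2 fold change 3.95, edgeR adjusted p = 0.0182) and the collagens were not (edgeR adjusted p = 0.0580 for Col1a1 and 0.104 for Col3a1), with 3.22% of genes called higher.

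The fold changes of the old comparison depended on replicate 2 of either group. Without old quiescent replicate 2, all 3 genes were called, with log2 fold changes of 6.01 for Col1a1, 6.0 for Col3a1 and 4.90 for Vim (edgeR adjusted p = 0.0359 and 0.0466 for the collagens). That fit called 734 of 15445 genes higher, against 1068 of 14920 in the model with 4 groups. Without old replicative replicate 2, the log2 fold changes were 3.27, 2.79 and 3.26, and Vim alone was called, with 939 of 15326 genes called higher. Leaving out young replicative replicate 4 or 5, which enter through the shared estimate of spread, also brought both collagens under the threshold, and leaving out old replicative replicate 3 or 4 did so for Col1a1. Genes called higher were 1127 of 14934 and 1230 of 14961 without young replicative replicate 4 and 5. They were 1388 of 15844 and 1420 of 15877 without old replicative replicate 3 and 4. The call of Vim in old cells held in all 27 alternatives (adjusted p from 3.19e-09 to 0.0182). Col1a1 was called in 8 of them (adjusted p from 0.000164 to 0.144) and Col3a1 in 5 (0.00894 to 0.213). DESeq2, which called 1980 of 14920 genes higher, called both collagens. Col1a1 was called by limma-trend, which called 806 of 14920 genes higher. Both collagens were also called with the replicate number within age as a block (edgeR adjusted p = 0.000164 for Col1a1 and 0.0127 for Col3a1). With this block 700 of 14920 genes were called higher. That fit pairs quiescent with replicating libraries by number, and the labels do not say that a number marks a batch.

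In young islets, none of the 3 genes was called by edgeR in the model with 4 groups between replicating and quiescent cells, where 2.25% of all genes were called higher. Vim had a log2 fold change of 1.61 (SE 0.556, edgeR adjusted p = 0.214), a ratio of means of 3.06. For Col1a1 the value was 2.01 (SE 1.2, edgeR adjusted p = 0.804) and for Col3a1 1.83 (SE 1.28, edgeR adjusted p = 0.903). The unadjusted p was under 0.05 for 1 of 3, and DESeq2, limma-voom and limma-trend called 0 of 3. Groups did not overlap for 4.45% of all genes in the upward direction, and for none of these 3. Fitted on the 10 young libraries alone, where 4.81% of genes were called higher, Vim was called (log2 fold change 1.62, SE 0.414, edgeR adjusted p = 0.0305). The adjusted p of Vim in this comparison ran from 0.0219 to 0.557 over 27 alternatives, the highest without young replicative replicate 5, where the log2 fold change was 1.08. The lowest was that of edgeR with the replicate number within age as a block, which called Vim (log2 fold change 1.35, SE 0.307). That fit pairs libraries by number, which the labels do not tie to a batch, and called 317 of 14920 genes higher.

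The collagens of young replicating cells fell apart into 3 libraries at 73.7 to 160.0 CPM of Col1a1 and 2 at 3.51 and 1.90 CPM. The same pair of replicate numbers, 4 and 5, was lowest among young quiescent libraries. Genes detected at equal depth moved with this split in replicative cells, at 21836, 18823 and 19782 in replicates 1 to 3 against 14471 and 14004 in replicates 4 and 5. In young quiescent cells the counts of detected genes were 22295, 19663 and 16387 in replicates 1 to 3 and 15684 and 16560 in replicates 4 and 5. Their part in the collagen levels was not tested. Vim did not share the split, and young replicative replicate 5, the lowest library for Col1a1, was the highest young library for Vim at 133 CPM.

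Among replicating cells, old islets held more of all 3 transcripts than young ones. The log2 difference, old minus young, was 5.64 for Col1a1 (SE 1.39, edgeR adjusted p = 0.0261), 5.55 for Col3a1 (SE 1.49, edgeR adjusted p = 0.0378) and 3.35 for Vim (SE 0.598, edgeR adjusted p = 0.00369). Means differed 50.1-fold, 47.1-fold and 10.2-fold. Thus 3 of 3 were called higher, where 3.29% of all genes were, and the groups did not overlap for any of them, where 2.43% of all genes were higher without overlap. The gap was widest for Col1a1, with 522 CPM in the lowest old library against 160.0 CPM in the highest young one, and narrow for Vim, at 176 against 133 CPM.

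Only the call of Vim held when the 9 replicative libraries were fitted alone (log2 difference 3.35, SE 0.594, edgeR adjusted p = 0.0353), in a fit that called 0.436% of genes higher. There Col1a1 had an edgeR adjusted p of 0.208 and Col3a1 of 0.270, with log2 differences of 5.61 and 5.52 that were nearly those of the model with 4 groups. Over 27 alternatives the adjusted p of Vim stayed between 8.09e-07 and 0.0353, while Col1a1 lost its call in 3 (4.2e-05 to 0.208) and Col3a1 in 11 (0.000246 to 0.284). Col1a1 lost it without young replicative replicate 2 (edgeR adjusted p = 0.0578). Without old replicative replicate 2, Col3a1 lost its call (edgeR adjusted p = 0.0709), and the log2 differences shrank to 4.44, 4.25 and 2.75 for Col1a1, Col3a1 and Vim. Col3a1 also lost it without old quiescent replicate 1, without young quiescent replicate 2 or 3, and without young replicative replicate 1 or 2.

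Among quiescent cells, 0 of the 3 genes were called by edgeR between old and young islets, where 0.0201% of all genes were called higher. The log2 difference was 3.17 for Col1a1 (SE 1.27, edgeR adjusted p = 0.90), 3.27 for Col3a1 (SE 1.38, edgeR adjusted p = 0.946) and 1.08 for Vim (SE 0.575, edgeR adjusted p = 1.00). The unadjusted p was under 0.05 for 2 of 3, and 0 of 3 were called by DESeq2, limma-voom and limma-trend. Groups overlapped for all 3 genes, where 2.63% of all genes were higher in old cells without overlap, and the 2-group fit called 1.05% of genes higher and 0 of these 3. The differences depended on old quiescent replicate 2, and without it the values were 1.64 for Col1a1, 1.37 for Col3a1 and 0.05 for Vim.

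Whether the step from quiescent to replicating cells differed with age was tested as an interaction, for which 0.0268% of all genes were called in either direction. Its value, the old minus the young log2 fold change, was 2.48 for Col1a1 (SE 1.73, edgeR adjusted p = 0.707), 2.28 for Col3a1 (SE 1.87, edgeR adjusted p = 0.766) and 2.27 for Vim (SE 0.818, edgeR adjusted p = 0.311). None of the 3 was called by edgeR in the model with 4 groups, or by DESeq2, limma-voom or limma-trend. In that edgeR model 1 of 3 had an unadjusted p under 0.05. In the model with 4 groups, which treats all libraries as independent, the larger fold changes in old than in young cells were not shown to differ between the ages. Over 26 alternatives the adjusted p of the interaction ran from 0.0475 to 0.579 for Vim, which 1 of them called, from 0.114 to 0.877 for Col1a1 and from 0.280 to 0.911 for Col3a1. The 1 call of Vim came from edgeR with the replicate number within age as a block (value 2.64, edgeR adjusted p = 0.0475). That fit called 11 of 14920 genes in either direction, and the labels do not say that a number marks a batch.

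**Figure D2:**
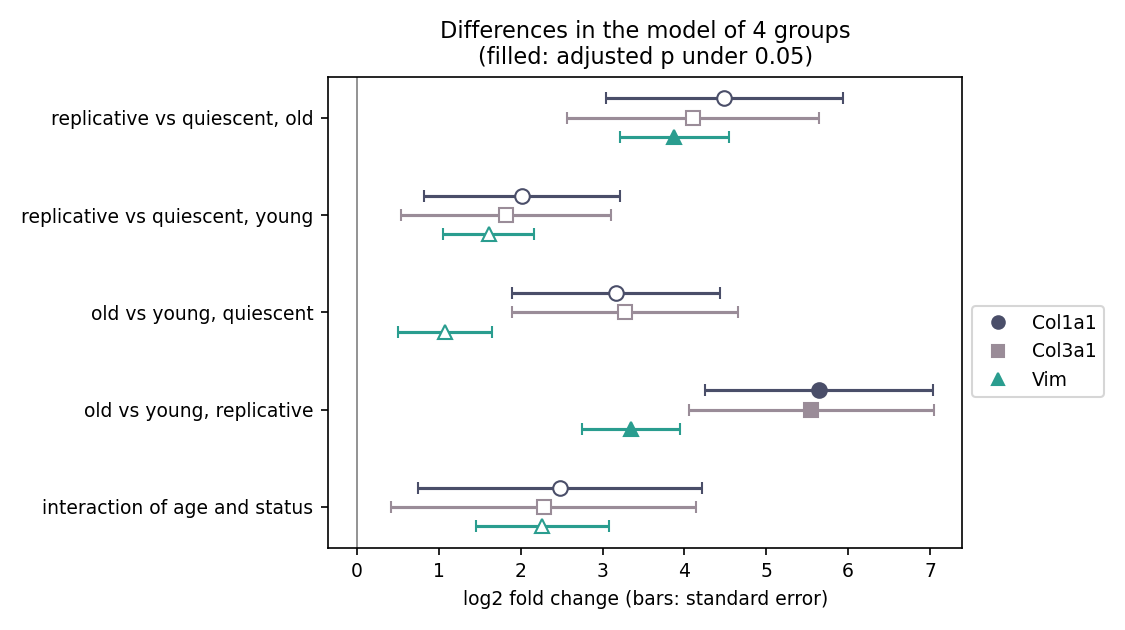
Log2 fold changes of the 3 genes in the 5 comparisons of the model with 4 groups, on a linear axis with bars for the standard error and filled symbols for an edgeR adjusted p under 0.05. All values lie above 0, the standard errors of the collagens (1.2 to 1.87) exceed those of Vim (0.556 to 0.818), and filled symbols stand for Vim in old cells and for all 3 genes between old and young replicating cells.

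The larger errors of the collagens came from a wide spread between libraries of a group. The biological coefficient of variation, the relative spread beyond counting noise in the model, was 1.14 for Col1a1 and 1.24 for Col3a1, against 0.582 for Vim and a median of 0.683 over all genes tested. Of those genes, 86.3% had a smaller value than Col1a1, 91.8% a smaller one than Col3a1 and 41.0% a smaller one than Vim. Among old quiescent libraries, which were otherwise much alike (median SD of log2 CPM over all genes 0.344, n = 4), the SD of log2 CPM was 1.88 for Col1a1, 2.11 for Col3a1 and 1.18 for Vim. In young replicative libraries it was 2.88 and 3.51 for the collagens and 1.04 for Vim, with a median of 0.742 over all genes (n = 5). In old replicative libraries the median over all genes was itself 1.41 (n = 4), and the values of 1.88, 2.15 and 1.15 for Col1a1, Col3a1 and Vim lay nearer to it. Vim was tight among young quiescent libraries, where its SD of 0.339 was under the median of 0.395 (n = 5).

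**Figure D3:**
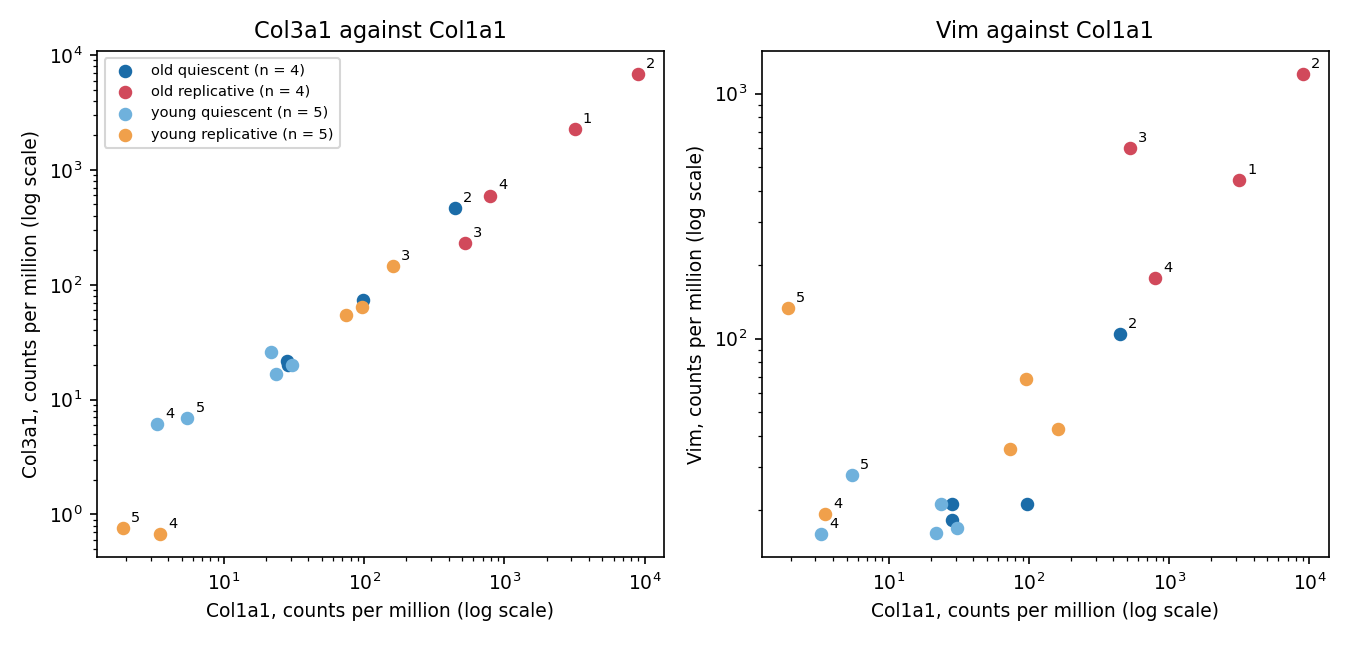
Col3a1 (left) and Vim (right) against Col1a1 in the 18 libraries, in CPM on log axes, coloured by group and numbered by replicate where libraries stand apart. Col3a1 lies near a line with Col1a1 from 1.90 to 8962 CPM of Col1a1, while young replicative replicate 5 has 133 CPM of Vim at 1.90 CPM of Col1a1.

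The ratio of the collagens to each other varied less between libraries than the ratio of either to Vim. The log2 ratio of Col1a1 to Col3a1 counts ran from -0.88 to 2.26 over the 18 libraries, with an SD of 0.671. Its highest value, in young replicative replicate 4, rests on 21 and 4 counts. For Col1a1 to Vim the log2 ratio ran from -6.06 in young replicative replicate 5 to 2.90 in old replicative replicate 2, with an SD of 2.28. Among old replicative libraries, replicate 3 stood apart with a log2 ratio of -0.20 where the others held 2.83, 2.90 and 2.17. Transcript lengths enter each ratio, so only its change between libraries is read here. None of the 12 differences in log2 ratio between groups (3 pairs in 4 comparisons, exact permutation tests, two-sided, chosen after seeing the data) passed the threshold, with exact p from 0.0714 to 0.905 and adjusted p from 0.381 to 0.905. With 4 or 5 libraries per group, no single difference, however complete, could pass by itself after adjustment over 12 tests. The tests therefore do not show that the ratios were alike between groups. The largest of the differences between replicative and quiescent old cells was that of Col1a1 to Vim, at 1.92 ± 1.45 in old replicative and 1.34 ± 0.939 in old quiescent libraries (SD, n = 4 each).

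Across the 9 quiescent libraries, log2 CPM of Col1a1 and Col3a1 correlated with a Pearson r of 0.973 (exact permutation p = 0.000314, adjusted p = 0.00126) and a Spearman rho of 0.767 (exact p = 0.0214, adjusted p = 0.0413). Without the 2 libraries farthest from the median of Col1a1, r was 0.958 (exact p = 0.0365, adjusted p = 0.0626) and rho 0.50 (exact p = 0.267), so the relation no longer passed the threshold. For Col1a1 and Vim, r was 0.692 (exact p = 0.0617, adjusted p = 0.0766) and rho 0.50 (exact p = 0.178). For Col3a1 and Vim, r was 0.779 (exact p = 0.0638, adjusted p = 0.0766) and rho 0.367 (exact p = 0.336). Without the 2 libraries farthest from the median of the pair's collagen, r turned to -0.466 and -0.334. Each relation thus rested on the libraries left out for it. Old quiescent replicate 2 was left out for both pairs, and the other library left out was not the same. Values were adjusted over the 12 coefficients computed. The 9 quiescent libraries pool both ages, and the permutations ignored age. These coefficients and their p therefore also hold any difference between old and young quiescent libraries. The coefficients across replicative libraries are not given, because old and young replicative libraries did not overlap in any of the 3 genes.

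The genes most like each member were sought over all 18 libraries among 10338 genes with an average log2 CPM of at least 2, by Spearman's rho of log2 CPM, as a description that also holds the differences between groups. The collagens had a rho of 0.963 with each other, and Vim of 0.705 with Col1a1 and 0.686 with Col3a1. ENSRNOG00000029212 was most like Col1a1 (rho 0.979), at 932 ± 1177 CPM in old replicative, 96.5 ± 127 in quiescent libraries of old islets (SD, n = 4 each), 22.4 ± 21.3 in young replicative and 8.59 ± 5.93 in young quiescent libraries (SD, n = 5 each). ENSRNOG00000055962 was most like Col3a1 (rho 0.979), at 1210 ± 1077 CPM in old replicative, 73.5 ± 82.0 in quiescent libraries of old islets (SD, n = 4 each), 33.9 ± 31.3 in young replicative and 10.7 ± 4.56 in young quiescent libraries (SD, n = 5 each). A rho of at least 0.9 was reached by 44 genes with Col1a1, by 33 with Col3a1 and by 7 with Vim. The collagens shared 32 of these genes, out of 44 for Col1a1 and out of 33 for Col3a1, and Vim shared 0 with either collagen.

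**Figure D4:**
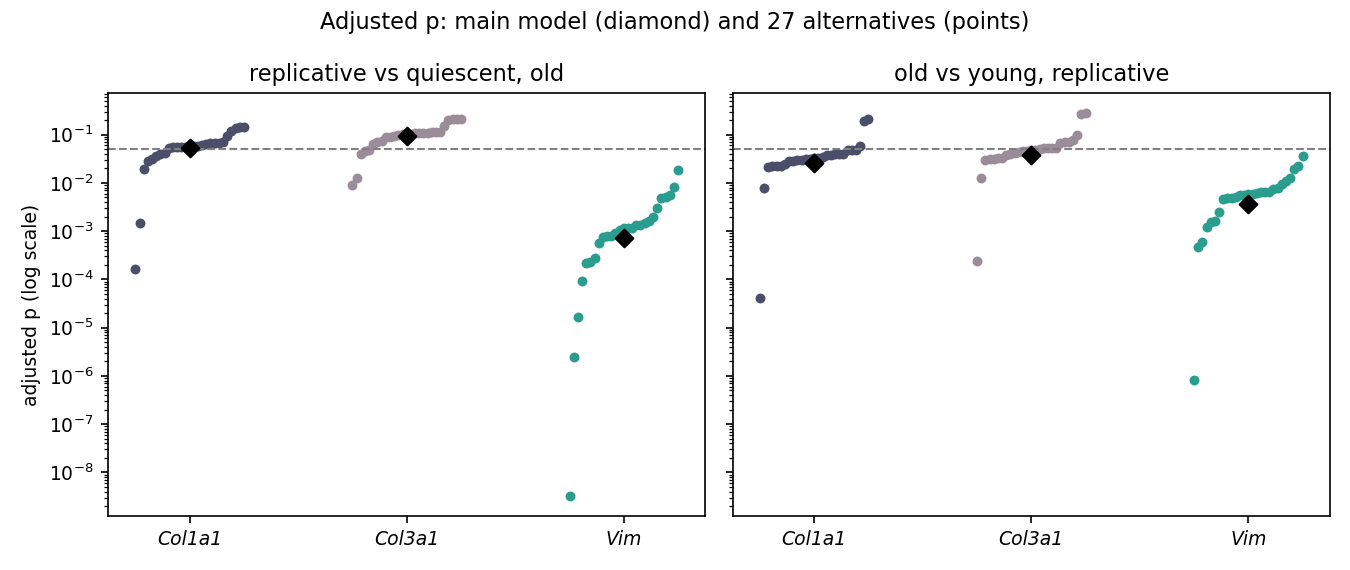
Adjusted p of the 3 genes on a log axis for replicative against quiescent cells of old islets (left) and old against young replicative cells (right), with a diamond for the model with 4 groups, points for the 27 alternatives sorted by value and a dashed line at 0.05. All points of Vim lie under the line in both panels, and those of the collagens lie on both sides of it.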

How the data were processed

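The deposited count table holds raw counts per rat Ensembl gene identifier. The authors' second table holds log2 values. Recomputed here, each equals log2 of the count over a median-of-ratios size factor, plus 1 (largest difference 5.2e-14). The submitters' processing notes name STAR, DESeq2 and build rn6 without role or version. No source used here names the counting program, the annotation release or its strand setting. The labels' protocols name a forward-stranded total RNA kit.

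The tests used edgeR 4.0.16 in R 4.3.3 (filterByExpr by group with a minimum count of 10, TMM, robust quasi-likelihood fit with 4 group means over 18 libraries, no covariate). The filter kept 14920 genes, among them all 3 analysed here. Standard errors are the log2 fold change over the square root of F. CPM used TMM-scaled library sizes, log2 CPM a prior count of 2, and log2 ratios of counts a pseudocount of 0.5. Alternatives used DESeq2 1.42.0 and limma 3.58.1. The fits were also run on simulated counts with the same spread for every gene. That spread was narrower than that of each of the 3 genes and than the median of all genes tested. The run therefore does not test the fits at the spread of these genes. No 2 libraries of a group held identical counts.

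The members, lists and tests were chosen with earlier results of these data known. The genes named are the members and the identifier most like each collagen. No table at hand paired identifiers with symbols, so the lists of marker, matrix and filament genes were not run. P-values measure the spread between libraries of pooled rats, and quiescent and replicating libraries of a batch enter as independent.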

Additional observations from a re-analysis of the deposited data

Results flagged for a closer look

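Old quiescent replicate 2 stood apart from the other 3 libraries of its group in all 3 genes, by a gap of more than Dixon's 95% critical value of the group's range. It held 443 CPM of Col1a1, 463 CPM of Col3a1 and 104 CPM of Vim, with gaps of 0.833, 0.880 and 0.965 of the range. Chance would flag about 1 in 20 groups if values were normally distributed. The limit was applied to CPM and not to log2 CPM, so right-skewed levels can pass it more often. Of the 12 gene and group combinations, 3 passed this limit, all in this library, so they are not independent. Its total of 9950654 counts and its 15927 genes detected at equal depth lay within the range of its group. Old replicative replicate 2 was the highest of its own group in the same 3 genes, at 8962, 6878 and 1205 CPM, and did not pass it.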

How the results depend on the processing

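All log2 fold changes of the 3 genes kept their sign in all alternatives run. Of the 3 genes, 1 was called between replicative and quiescent old cells, 3 with DESeq2, 2 with limma-trend on the deposited log2 values, and 1 to 3 when single libraries were left out (3 without old quiescent replicate 2, young replicative replicate 4 or young replicative replicate 5, and 2 without old replicative replicate 3 or 4). Of all 14920 genes, 1068 were called higher in the 4-group model, 1980 with DESeq2 and 806 with limma-trend. In young cells the number of the 3 genes called went from 0 to 1 in the 2-group fit. All genes called higher went from 336 of 14920 to 624 of 12970. Between old and young replicative cells the number of the 3 genes called went from 3 to 1 in the 2-group fit and with limma-voom, and to between 1 and 3 on leaving out single libraries. There the 4-group model called 491 of 14920 genes higher, the 2-group fit 58 of 13308 and limma-voom 186 of 14920. With the replicate number within age as a replicate block, the numbers of the 3 genes called were 3 in old cells (edgeR adjusted p = 0.000164 for Col1a1 and 0.0127 for Col3a1), 1 in young cells (Vim, edgeR adjusted p = 0.0219) and 1 for the interaction (Vim, value 2.64, edgeR adjusted p = 0.0475). Of all 14920 genes, the block fit called 700 higher in old and 317 in young cells, and 11 in either direction for the interaction. For the age comparisons the block was a random term in limma-voom, and Col3a1 lost its call between old and young replicative cells (limma adjusted p = 0.0993). Each batch gave both kinds of sample, but the labels do not say that a number marks a batch, and deviations of same-numbered libraries correlated by 0.071 to 0.506, over 0.1 in 7 of 9 pairs. Of the 9 pairs, 8 correlated best with their own number, a hint from the data and not from the design. Without the 2 quiescent libraries farthest from the median of the pair's collagen, r and rho of Col1a1 with Vim were -0.466 and -0.071. Those of Col3a1 with Vim were -0.334 and -0.143. Untested directions turned for 3 log2 ratios when single libraries were left out: Col3a1 to Vim in old cells (-0.12 to 1.18), Col1a1 to Vim in young cells (-1.11 to 0.88) and Col1a1 to Col3a1 between replicative groups (-0.52 to 0.0137). The cause was not tested for any of these changes. Over all genes, calls ran from 540 to 3183 (2053 in the 4-group model), 293 to 2935 (368), 0 to 1571 (4), 62 to 2251 (1069) and 0 to 296 (4) for replicative against quiescent in old and in young cells, old against young in quiescent and in replicative cells, and the interaction. Depth limits Col3a1 in young replicative replicates 4 and 5, at 4 counts each.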
